A study of Mus musculus with 2 samples.

Results

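The motile cilium genes examined here are 41 mouse genes chosen by name. They comprise the transcriptional programme of multiciliated cells and the protein parts of the beating axoneme. Of the 41, 40 have a row among the 19720 genes of the deposited read-count table, and Meig1 has no row and was not analysed here. Transcripts were counted by RNA sequencing in embryonic mouse forebrain of 2 genotypes on the C57BL/6 strain. The control carries floxed H2A.Z alleles (H2AZfl/fl) and is named WT in its title, and the other genotype is the H2A.Z conditional knockout (H2AZcKO). The tissue field names telencephalic tissue, the extraction protocol names dissected cerebral cortex, and the age is uncertain because the titles give embryonic day 16 and another field gives embryonic day 12. The Cre driver and any pooling of embryos were not given in the sources used here.

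The design text speaks of triplicates, but there is 1 count column per genotype, so no difference here has a replicate check and no test between the genotypes was possible. Each ratio sets 1 knockout library of 9028523 reads in genes against 1 control library of 8474545. Ratios are log2 of knockout over control after TMM scaling, which equalises the libraries on the bulk of their genes. The bracketed range after a ratio is an exact 95% Clopper-Pearson interval for counting error alone. A gene with at least 20 reads over both libraries is called measured, and lower or higher means at least 1.5-fold apart. The targeted gene, H2afz, had 1152 control and 535 knockout reads and was 2.24-fold lower.

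A motile cilium is a microtubule axoneme of outer doublets around a central pair, bent by rows of axonemal dynein motors. Radial spokes, nexin links, the central apparatus and proteins inside the doublets set the spacing and timing of the dynein strokes. Cells that carry many such cilia switch on the geminin-family regulators Gmnc and Mcidas, then Foxj1 and RFX-family transcription factors, which activate the structural genes. In the brain these cells include ependymal cells and the epithelium of the choroid plexus, and motile cilia are also known from testis and airway.

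RFX factors bind the X-box, whose repeated unit is GTTGCC. Promoter windows of 300 bases, from 250 before to 50 after each RefSeq gene start (GRCm38.p6), were found for 36 of the 41 genes, in 45 windows. GTTGCC, searched on both strands at any position, was present in 19 of the 45 windows (42.2%), against 12.5% of all 32851 promoter windows. The other motile cilium genes, a separate list of 109, had it in 42.1% of their windows, and genes of ciliary transport and the transition zone in 36.2%. The forkhead motif GTAAACA, searched the same way, was present in 2 of the 45 windows (4.44%), close to the 3.65% of all windows. Foxj1, Dnah3, Rsph1, Rsph4a and Tppp3 had no matching window.

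The stretches below are 60 bases long and are shown because they hold the X-box unit in genes that were lower in the knockout library. They read 5′ to 3′ along the gene's strand, with the X-box unit in capitals as GTTGCC or as its complement GGCAAC. Cfap44 (chr16:44394739-44394798, plus strand), Dnaic2 (chr11:114727359-114727418, plus strand) and Drc1 (chr5:30281333-30281392, plus strand) carry it 19, 26 and 11 bases before the start. Hydin (chr8:110266917-110266976, plus strand), Tekt2 (chr4:126325689-126325748, minus strand) and Enkur (chr2:21205367-21205426, minus strand) carry it 13, 22 and 34 bases before the start.
Cfap44: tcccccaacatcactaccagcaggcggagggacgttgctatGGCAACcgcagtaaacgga
Dnaic2: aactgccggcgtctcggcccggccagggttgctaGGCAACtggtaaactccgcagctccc
Drc1: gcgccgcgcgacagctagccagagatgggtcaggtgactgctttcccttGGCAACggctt
Hydin: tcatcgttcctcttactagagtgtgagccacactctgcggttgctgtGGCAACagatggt
Tekt2: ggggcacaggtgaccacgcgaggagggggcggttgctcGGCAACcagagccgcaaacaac
Enkur: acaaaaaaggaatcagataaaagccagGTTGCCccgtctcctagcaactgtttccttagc

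Members that stayed within 1.5-fold of level also carried the X-box unit. Tekt1 (chr11:72361883-72361942, minus strand), Rfx2 (chr17:56831092-56831151, minus strand) and Dnah7b (chr1:46066663-46066722, plus strand) are shown for comparison, with their nearest match 15, 116 and 163 bases before the start.
Tekt1: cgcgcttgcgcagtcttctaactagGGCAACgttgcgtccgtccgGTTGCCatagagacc
Rfx2: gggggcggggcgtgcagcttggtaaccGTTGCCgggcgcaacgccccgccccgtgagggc
Dnah7b: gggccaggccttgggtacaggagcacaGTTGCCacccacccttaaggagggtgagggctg
The X-box unit was present in 6 of the 12 lower members with a window, in 7 of 14 level members and in 5 of 9 members with too few reads to call. The Mcidas and Ccno windows also held it. A match is a description of these letters and not a measured binding site.

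Reads of the motile cilium genes were fewer in the knockout library at most members. Of the 40 with a row, 34 had fewer knockout than control reads. After scaling, 34 of the 40 had a log2 ratio below 0. Among the measured members it was 24 of 29, against 49.6% of all measured genes. Of the 29 measured, 14 were lower and 0 higher, and the other 15 were level. Among all 14366 measured genes, 5.43% were lower and 3.52% higher. Since genes with few reads pass 1.5-fold more often by counting error, the closer background is the 6210 genes with 20 to 375 reads, the range of the measured members other than Rfx3, where 12.1% were lower and 7.29% higher. Of the 14 lower members, 13 had an interval wholly below level. Over all measured genes, 3.2% showed such an interval together with the 1.5-fold difference. That share was not computed for the narrower read range.

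The median log2 ratio of the 29 measured members was -0.52, against 0.0018 over all measured genes and -0.06 in the narrower read range. The ratios ran from -4.03 in Rsph1 to 0.20 in Dnah7a, with 24 below 0 and 5 above. Of all measured genes, 49.6% were below 0. Summed over the 40 genes, there were 2951 control and 2242 knockout reads, at a log2 ratio of -0.45 (-0.53 to -0.37). Rfx3 alone supplied 35.5% of the control sum and 44.3% of the knockout sum, and without it the sums were 1903 and 1249, a log2 ratio of -0.66 (-0.77 to -0.56). In 1 bulk library per genotype, fewer ciliated cells, less RNA per ciliated cell and a difference in tissue dissected cannot be told apart.

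**Figure D1:**
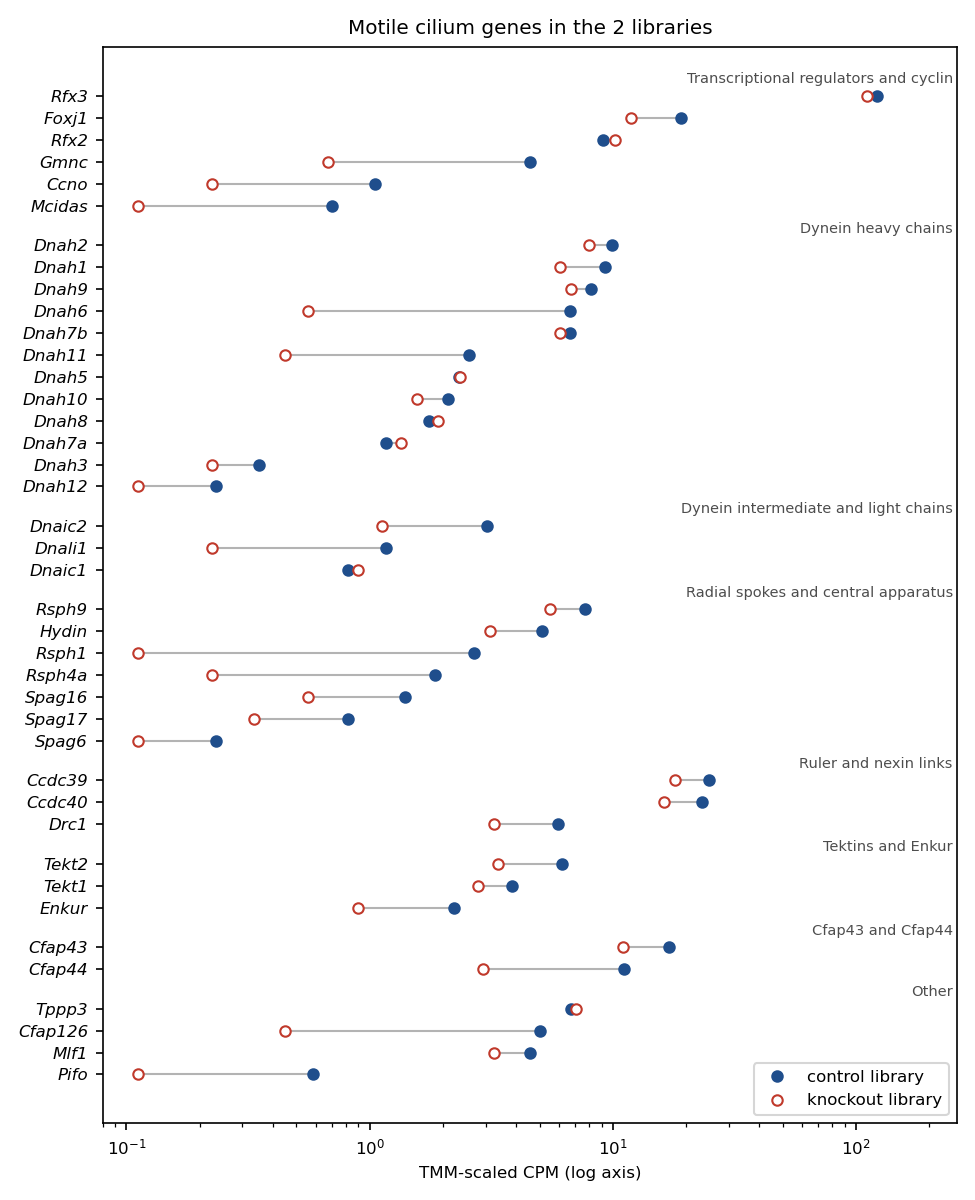
TMM-scaled CPM (log axis) of the 40 motile cilium genes in the control library (filled circles) and the knockout library (open circles), grouped by role. The open circle lies to the left of the filled circle in 34 of the 40 genes, and the spacing runs from near 0 in Dnah5 and Tppp3 to more than a decade in Rsph1, Dnah6 and Cfap126.

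Expression was low for most structural members, and the regulators Rfx3 and Foxj1 stood at the top. Per kilobase of exon, Rfx3 had 11.1 scaled CPM in the control and 10.1 in the knockout, and Foxj1 had 7.24 and 4.53. The radial spoke gene Rsph9 followed in the control library with 4.80, then Ccdc40 with 3.87, Tppp3 with 3.66, Ccdc39 with 3.35 and Tekt2 with 3.25. The order of some members differed strongly between the libraries. Cfap126 went from rank 8 at 2.83 in the control to rank 20 at 0.253 in the knockout, and Rsph1 from rank 13 at 1.95 to rank 31 at 0.0817. The dynein genes Dnah12, at 0.0194 and 0.0093, and Dnah3, at 0.0245 and 0.0157, were near the bottom in both libraries, on at most 3 reads each, too few to order them. Exon lengths came from GENCODE M21 and count every annotated exon, so a gene's level per kilobase is a lower estimate where only some of its exons were used.

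The regulators of multiciliation differed from level by unequal amounts. Gmnc, also called GEMC1, heads the multiciliation programme and lies at chr16:26957236-26989974 in the coordinates of the deposited table. It had 39 control reads and 6 knockout reads, at a log2 ratio of -2.66 (-4.29 to -1.51), or 6.32-fold lower (2.84 to 19.5). Foxj1 (chr11:116330704-116335399), the forkhead factor that drives genes for motile axonemes, had 163 and 106 reads. Its log2 ratio was -0.68 (-1.04 to -0.32), or 1.60-fold lower, well short of the Gmnc difference and with an interval that does not reach it. Mcidas, the geminin-family partner that acts after Gmnc, had 6 and 1 reads, and the cyclin-like gene Ccno, needed for the mass production of centrioles, had 9 and 2. Both have too few reads for a call, and both counts were lower in the knockout library.

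The RFX factors on the list did not share the Gmnc difference. Rfx3, which directs transcription in motile and primary cilia alike, had 1048 and 993 reads, at a log2 ratio of -0.13 (-0.26 to -0.01), below level by 1.10-fold. Rfx2, a closely related factor, had 78 and 91 reads, at a log2 ratio of 0.16 (-0.29 to 0.62). The 6 regulators together had 1343 control and 1199 knockout reads, most of them from Rfx3.

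Ccno, Mcidas and Cdc20b are neighbours on chromosome 13, and all 3 had few reads. In the table, Ccno lies at chr13:112987802-112990778, Mcidas at chr13:112993868-113000394 and Cdc20b, which encodes a relative of the anaphase activator Cdc20 and is no member, at chr13:113035111-113091195. Cdc20b had 6 control reads and 1 knockout read. The other measured genes within 200000 bases of Mcidas were level: Plpp1 had 109 and 143 reads, Mtrex 915 and 921, Dhx29 522 and 534, and Gpx8 134 and 96, the last at a log2 ratio of -0.54 (-0.93 to -0.15).

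Axonemal dynein heavy chains, the motor subunits, included some of the members furthest apart alongside several at level. Of the 12 on the list, 10 were measured, 3 were lower and 0 higher, with a median of -0.30. Dnah6 (chr6:73017606-73221651), an inner-arm heavy chain, had 57 control reads and 5 knockout reads, at a log2 ratio of -3.44 (-5.24 to -2.26), or 10.9-fold lower (4.79 to 37.9). Dnah11 (chr12:117877982-118199043), an outer-arm heavy chain, had 22 and 4 reads, at a log2 ratio of -2.38 (-4.51 to -0.96), or 5.20-fold lower. Dnah1, an inner-arm chain, had 80 and 54 reads and was 1.54-fold lower at -0.62 (-1.15 to -0.11). These 3 intervals lie below level, and that of Dnah6 does not overlap that of Dnah1.

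The other measured heavy chains were level. Dnah9, the outer-arm partner chain of distal axonemes, had 70 and 60 reads at -0.28 (-0.80 to 0.24), and Dnah5, the outer-arm chain found along the axoneme, had 20 and 21 reads at 0.01 (-0.94 to 0.97). Dnah2, an inner-arm chain, had 85 and 71 reads at -0.31 (-0.79 to 0.16), and Dnah10, another inner-arm chain, had 18 and 14 reads at -0.41 (-1.54 to 0.67). Dnah8, which is best known from sperm, had 15 and 17 reads at 0.12 (-0.97 to 1.23). All 5 intervals include level. The intervals of Dnah5 and Dnah11, which both encode outer-arm heavy chains, did not overlap, with nearest ends at -0.94 and -0.96.

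The inner-arm genes Dnah7a and Dnah7b are near-identical copies, and reads could have been split between them. Dnah7b had 57 and 54 reads at -0.13 (-0.70 to 0.43), and Dnah7a had 10 and 12 at 0.20 (-1.13 to 1.58). Of the 50-base stretches in its transcripts, Dnah7a shares 38.6% with other genes, most with Dnah7b, and Dnah7b shares 30.0%, most with Dnah7c. The related Dnah7c, which is no member, had 10 and 9 reads. The inner-arm genes Dnah3, with 3 and 2 reads, and Dnah12, with 2 and 1 reads, could not be assessed at this depth.

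Among the dynein intermediate and light chains, Dnaic2 was lower and its partner could not be called. Dnaic2 (chr11:114727408-114757889), which helps dock the outer arm, had 26 control and 10 knockout reads, at a log2 ratio of -1.39 (-2.65 to -0.34), or 2.63-fold lower. Dnaic1, the other intermediate chain of the outer arm, had 7 and 8 reads. Dnali1, an inner-arm light chain, had 10 and 2 reads. With 12 reads it is below the minimum, although its interval, -5.61 to -0.15, lies below level.

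Radial spoke genes ranged from far below level to level. Rsph1 (chr17:31255019-31277356), a spoke-head protein, had 23 control reads and 1 knockout read, a log2 ratio of -4.03 with a wide interval (-9.94 to -1.96). The ratio is 16.3-fold, with counting limits from 3.88-fold to 985.3-fold because it rests on a single knockout read. With a prior of 5 reads the log2 ratio of Rsph1 was -2.28, closer to level than those of Dnah6 (-2.69) and Cfap126 (-2.47), so the order of these 3 is not settled. Rsph4a, another spoke-head protein, had 16 and 2 reads, 2 short of the minimum, with an interval from -6.22 to -0.97. Rsph9, also a spoke-head protein, had 66 and 49 reads at -0.48 (-1.05 to 0.07). The interval of Rsph9 does not overlap that of Rsph1, and it includes level.

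Genes of the central apparatus had low counts, each with fewer reads in the knockout library. Hydin (chr8:110266977-110610253), a giant protein of a central-pair projection, had 44 and 28 reads, at a log2 ratio of -0.70 (-1.45 to 0.01), or 1.62-fold lower. It is the single measured member past 1.5-fold whose interval reaches level. Spag16 had 12 and 5 reads, Spag17 had 7 and 3, and Spag6 had 2 and 1. Spag6l, a close relative of Spag6 on chromosome 16 that is no member and was looked at after its values were seen, had 59 and 51 reads at -0.26 (-0.84 to 0.30), so that gene carried nearly all reads of the pair. Summed over the 7 spoke and central apparatus genes, there were 170 control and 89 knockout reads, at a log2 ratio of -0.99 (-1.38 to -0.61).

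The axonemal ruler genes had more reads than the nexin-link gene Drc1. Their ratios were nearer level but lay within the counting interval of Drc1. Ccdc39 and Ccdc40 form the ruler that sets the axonemal repeat. Ccdc39 had 214 and 161 reads at -0.47 (-0.77 to -0.17), and Ccdc40 had 200 and 145 reads at -0.52 (-0.84 to -0.20). Both were short of 1.5-fold with intervals below level, and their ratios lay within each other's counting error. Drc1 (chr5:30281388-30366695), which builds the nexin-dynein regulatory complex, had 51 and 29 reads at -0.86 (-1.58 to -0.19), or 1.82-fold lower. Of Ccdc39's exon bases, 16.9% overlap another gene, mainly Ttc14, which had 1159 and 1113 reads. Exons of 16 of the 41 genes overlap exons of another gene, and reads of such pairs may be mixed, since the strand setting of the counting was not given in the sources used here.

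Proteins inside the doublet microtubules varied in the same direction. Tekt2 (chr4:126322121-126325688), a filament-forming tektin, had 53 and 30 reads at -0.87 (-1.58 to -0.21), or 1.82-fold lower. Tekt1, also a tektin, had 33 and 25 reads at -0.45 (-1.27 to 0.34). Enkur (chr2:21180731-21205365), a calmodulin-binding inner protein, had 19 and 8 reads at -1.25 (-2.71 to -0.05), or 2.39-fold lower. The 3 ratios lie within each other's intervals. Tekt2 exons overlap the gene model Gm12945 over 20.8% of their length.

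Cfap43 and Cfap44 encode partners of the tether that anchors the inner dyneins, and both were lower. Cfap43 had 146 control and 98 knockout reads, at a log2 ratio of -0.63 (-1.02 to -0.25), or 1.55-fold lower. Cfap44 (chr16:44394796-44482428) had 95 and 26 reads at -1.91 (-2.61 to -1.29), or 3.75-fold lower (2.44 to 6.11). Their intervals do not overlap, although the proteins act in the same structure. Cfap44 kept 26 knockout reads, so its ratio rests on more counts than those of Rsph1, Dnah6 or Cfap126.

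The remaining members ranged from far below level to level. Cfap126 (chr1:171113918-171126967), also called Flattop, which works at the basal body in the positioning of cilia, had 43 control and 4 knockout reads. Its log2 ratio was -3.33 (-5.42 to -2.02), or 10.1-fold lower (4.06 to 42.9). Tppp3, a tubulin-binding protein also found outside ciliated cells, had 58 and 63 reads at 0.06 (-0.47 to 0.60), an interval that lies apart from that of Cfap126. Mlf1, which is expressed in several tissues besides ciliated ones, had 39 and 29 reads at -0.48 (-1.23 to 0.25), and Pifo, a gene linked to ciliary disassembly, had 5 and 1.

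**Figure D2:**
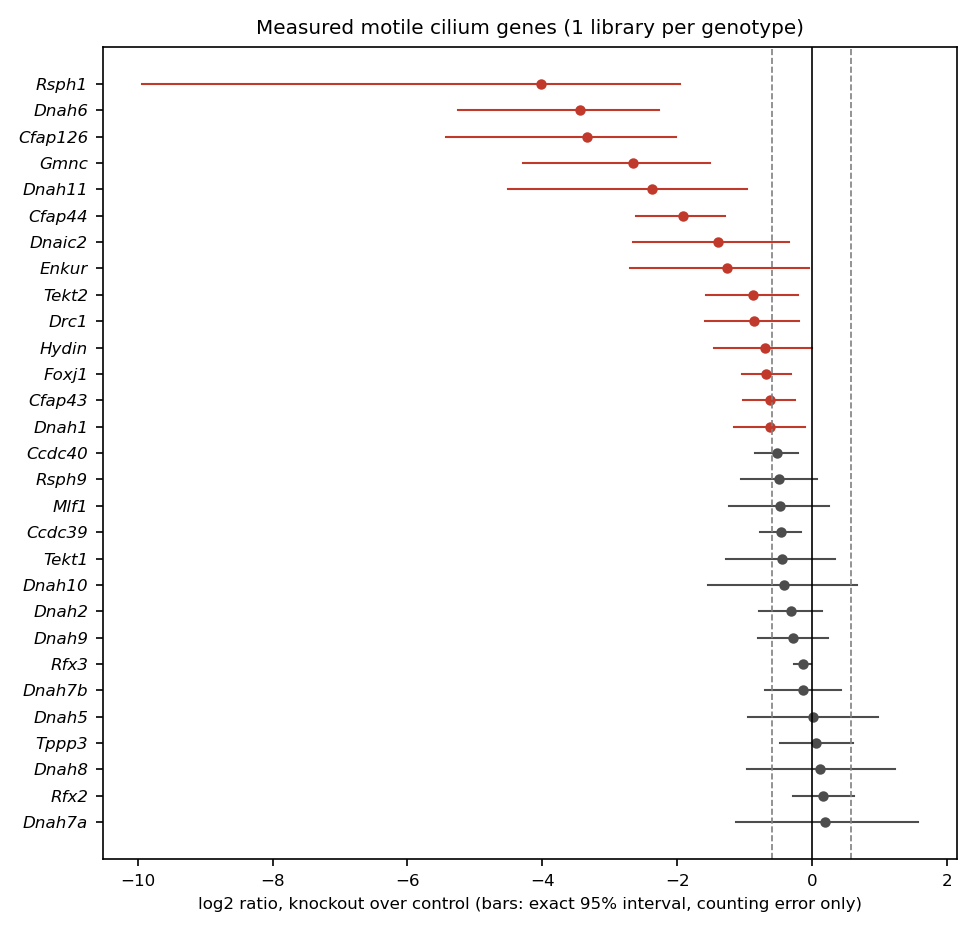
Log2 ratio of knockout over control for the 29 measured motile cilium genes, ordered by ratio, with bars for the exact 95% interval of counting error in 1 library per genotype. Red marks the 14 genes at least 1.5-fold lower, the dashed lines stand at 1.5-fold either way, and no point lies to the right of the upper dashed line.

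The members furthest apart had few knockout reads. Of the measured members, 6 had under 10 knockout reads (Gmnc, Dnah6, Dnah11, Rsph1, Cfap126 and Enkur), and 0 had under 10 control reads. These 6 reached the 20-read minimum mainly through the control library, so the count of 14 should be read with the unmeasured members beside it. Among the 11 members under the minimum, 10 had more control reads, and their sums were 79 control and 28 knockout reads. Over all genes with a symbol, 2090 of the 5294 under the minimum had more control reads, with sums of 19661 and 18834. Members with the most reads stayed closer to level than these 6, from -0.13 in Rfx3 and -0.47 in Ccdc39 to -0.68 in Foxj1. Few reads did not always go with a large difference. Dnah5, with 20 and 21 reads, was at 0.01 and Dnah8, with 15 and 17, at 0.12. Cfap44 was at -1.91 with 26 knockout reads.

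**Figure D3:**
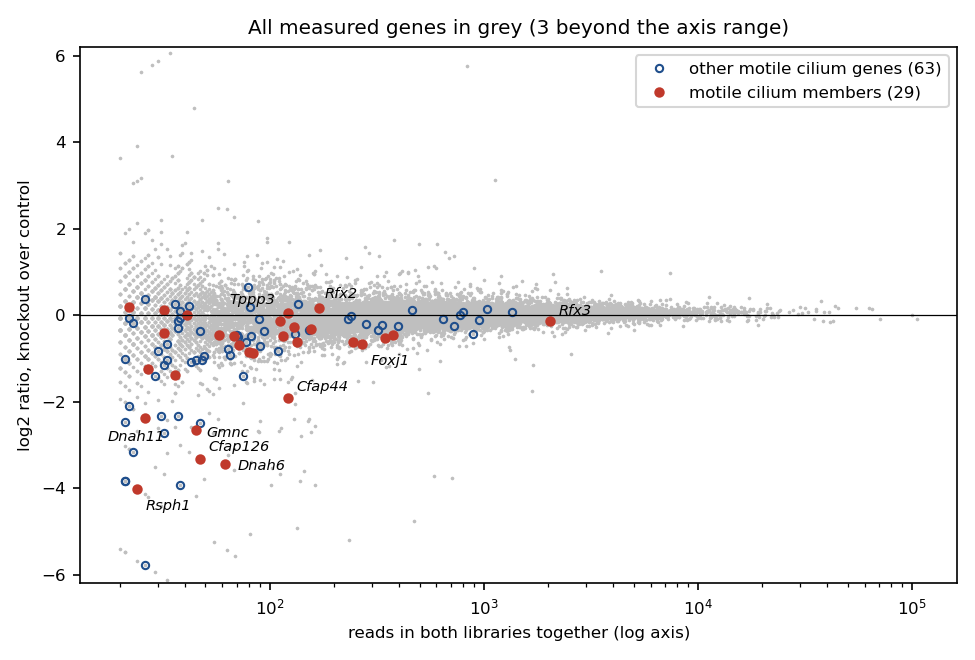
Log2 ratio of knockout over control against the reads of both libraries together (log axis) for all 14366 measured genes in grey, of which 3 lie beyond the axis range, with the 29 measured members as filled red circles and 63 other motile cilium genes as open blue circles. The members at -2 or below have 24 to 62 reads, a range in which the grey cloud is itself wide, and Rfx3 lies alone at 2041 reads near level.

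The authors' deposited table marks 318 genes as significant, each with an adjusted p of at most 0.0497 and a fold of at least 2.00 in the authors' values. In the authors' deposited table, 1.17% of genes with a row are marked and higher in the control, and 8 of the 40 motile cilium genes are among them: Gmnc, Dnah6, Dnah11, Dnaic2, Rsph1, Rsph4a, Cfap44 and Cfap126. The test behind that column was not given in the sources used here, and the columns beside it hold 1 library per genotype. The same 2 columns underlie the ratios above, so the marks add no separate measurement.

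Other genes of the motile cilium, on a list of 109 without the members, had a similar spread. Of 95 with a row, 63 were measured, 28 were lower and 1 was higher, with a median of -0.44. For this and the lists below, the shares over all measured genes were 5.43% lower and 3.52% higher. Over genes with 20 to 375 reads they were 12.1% and 7.29%. The higher gene on the list was Rsph10b, a spoke protein gene, with 30 and 49 reads at 0.64. Among the lower genes, Calml4, a calmodulin-like gene, had 26 control reads and 0 knockout reads. Set against a floor of 3 reads it was 9.01-fold lower, and its nearest counting limit was 6.82-fold. Cfap65 had 36 and 2 reads at -3.92 (-7.33 to -2.27), and Spef2 and Wdr63 each had 20 and 1 at -3.83 (-9.75 to -1.73). Cfap65 and Spef2 are known for roles in the flagellum, and Wdr63 encodes an inner-arm dynein intermediate chain. Calml4, Cfap65, Spef2 and Wdr63 reached the 20-read minimum mainly or only through the control library. The count of 28 should therefore be read with the unmeasured genes beside it. The 32 list genes with a row under the minimum had 247 control and 62 knockout reads in sum, and 30 of them had more control reads. Over all genes with a symbol, that held for 2090 of 5294 under the minimum.

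Most measured genes among the multiciliation and basal body factors were level. On the list of 28 multiciliation and basal body factors, 24 were measured, 1 was lower, 0 were higher and the median was -0.0017. The lower gene was Ccna1, a cyclin gene, with 19 and 11 reads at -0.82 (-2.06 to 0.30). Trp73, a p53-family factor that acts upstream of Foxj1, had 296 and 232 reads at -0.41 (-0.66 to -0.16). E2f4, which works with Mcidas, had 479 and 426 reads at -0.23, its relative E2f5 had 196 and 250 at 0.29, and Myb, another regulator of multiciliation, had 80 and 69 at -0.27. Rfx1 had 374 and 404 reads and Rfx4 198 and 208. Deup1, the organiser of the deuterosome on which multiciliated cells amplify centrioles, had 14 and 2 reads. These are too few for a call, although its interval, -6.04 to -0.74, lies below level. The 4 list genes under the minimum had 31 control and 11 knockout reads in sum, and 3 of them had more control reads. The list's median leaves these 4 out.

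Intraflagellar transport, Bardet-Biedl and transition zone genes, which every ciliated cell uses, were level as a list. All 66 were measured, 4 were lower, 0 were higher and the median was -0.07. Bbs10, a chaperonin-like gene of the Bardet-Biedl group, had 69 and 40 reads at -0.84, and the transition zone genes Mks1 and B9d1 had 126 and 79 at -0.73 and 106 and 71 at -0.63. Dync2li1, a light intermediate chain of the transport dynein, had 135 and 92 at -0.61. The list summed to 21654 control and 22563 knockout reads, at a log2 ratio of 0.0028 (-0.02 to 0.03).

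Markers of other cell types also differed between the libraries, and their part in the motile cilium differences was not tested. On the choroid plexus list of 22, whose epithelium is ciliated, 16 of 19 measured genes were lower, 1 was higher and the median was -3.09, with sums of 9104 control and 1807 knockout reads. Ttr, the transthyretin gene, had 6025 and 12 reads. The channel gene Kcnj13, with 11 control reads, and the tight junction gene Cldn2, with 21, had 0 knockout reads. Slc4a5 had 62 and 1 reads and Folr1 54 and 1, whereas Slc29a4 was level with 1056 and 1161, and Cab39l with 227 and 195. The higher gene on the list was Prlr, with 7 and 14 reads at 0.89 (-0.46 to 2.49). Slc29a4 is a transporter gene that neurons express too, and the cell source of its reads was not tested.

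Meningeal markers differed in the same way. Of 13 measured genes on that list of 14, 12 were lower and 0 higher, with sums of 2484 and 324 reads, and Cldn11 (79 and 2) and Col1a1 (455 and 17) were furthest apart. On the cortical hem and Cajal-Retzius list, 4 of 14 measured genes were lower, namely Bmp6 (48 and 9), Wnt3a (18 and 7), Wnt8b (91 and 52) and Wnt2b (51 and 33), while the median was -0.0054. In the opposite direction, 11 of 16 diencephalic and ventral markers were higher, with a median of 1.52. Shox2 had 0 control and 85 knockout reads, and Tcf7l2 had 111 and 1017. Set against the floor, Shox2 was 27.2-fold higher, and its nearest counting limit was 21.7-fold.

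Non-ciliary markers of ependymal and radial glial cells and markers of the dorsal cortex mostly stayed within 1.5-fold of level. On the ependymal and radial glial list, 0 of 10 measured genes were lower and 1, Six3 with 177 and 406 reads, was higher. Gja1 had 416 and 298 reads at -0.54 (-0.76 to -0.32), short of 1.5-fold with an interval below level. Of the list's 10 intervals, 3 lay below level and 4 above. Aqp4, with 10 and 6 reads, and S100b, with 1 and 2, which mark mature ependymal cells and astrocytes, had too few reads for a call in either library. Of 13 dorsal progenitor markers, 0 were lower and 0 higher, with a median of -0.16. Their intervals lay below level in 6 and above it in 2. Of 12 cortical neuron markers, 0 were lower and 1, Nefl with 168 and 379 reads, was higher. Their intervals lay below level in 5 and above it in 7. Of the 10 retinal, pineal and testis genes, 3 had a row and 2 were measured. Of these, 1 was lower and 0 were higher, with a median of -0.41. The lower gene was the germ-cell gene Ddx4, with 22 and 15 reads at -0.59 and an interval that reaches level.

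**Figure D4:**
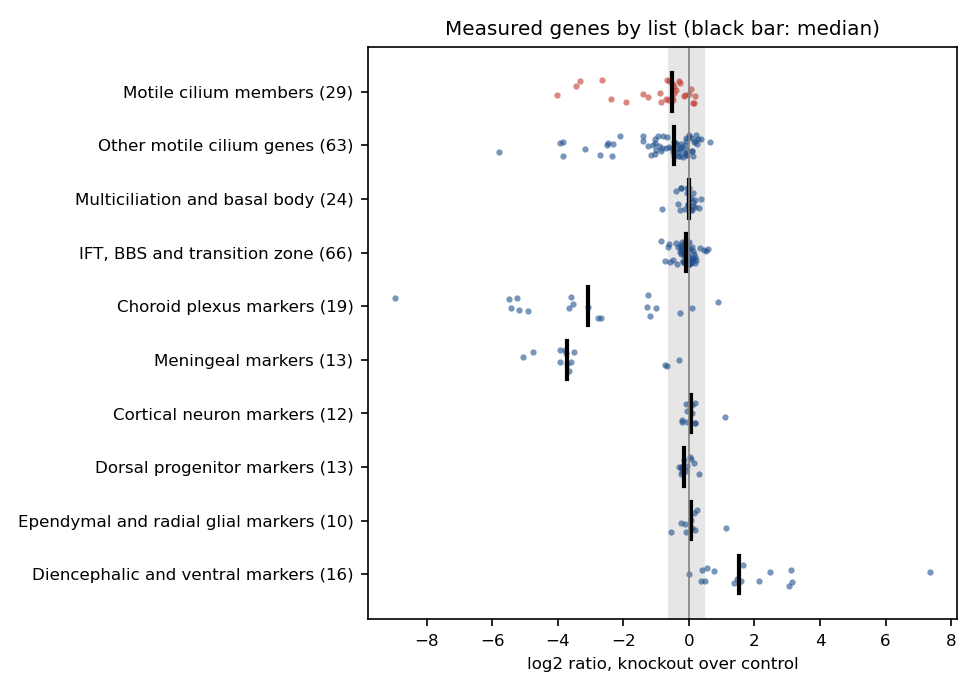
Log2 ratio of knockout over control for the measured genes of 10 lists, with each list's number of genes in brackets and a black bar at its median; the grey band spans the 5th to 95th percentile of all measured genes, -0.62 to 0.47. The medians of the motile cilium members (-0.52) and the other motile cilium genes (-0.44) lie inside the band, and part of each list trails to its left. Both medians stand between those of the near-level basal body and transport lists and that of the choroid plexus list at -3.09.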

How the data were processed

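Total RNA of 1 control and 1 knockout sample was sequenced from libraries made with a TruSeq kit from 2 ug of RNA, per the labels' protocols. HTSeq 0.6.0, TopHat2 2.0.12, Bowtie2 2.2.3 and the build mm9 are listed without roles, per the submitters' processing notes. The deposited positions of 30 of the 40 members were identical to GENCODE M21 on GRCm38, so coordinates are given as GRCm38. Raw read counts per gene and CPM values are in the authors' deposited table, per the file headers, with a fold column (control CPM divided by knockout CPM), its log2 and the p-values of a test not given in the sources used here. The table lists genes with at least 1 read, and 104 of its rows have no symbol.

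From the counts, TMM factors were computed with edgeR 4.0.16 and size factors, as an alternative, with DESeq2 1.42.0 (R 4.3.3). Log2 ratios used a prior of 0.5 read. Depths were 8474545 and 9028523 reads in listed genes, which limits members under 20 reads to wide intervals. PCR duplicates are not marked, so intervals and the floor of 3 reads cover counting error only. A gene was beyond counting error when its 95% interval lay wholly on one side of level. Calculations were checked on simulated counts. Genes given a known difference there were drawn only from genes with many reads, and only counting error was simulated. That check therefore does not cover differences at members with few reads. Exon overlaps and shared 50-base stretches came from GENCODE M21, and promoters from RefSeq. Intervals were computed with scipy 1.17.1, tables with pandas 2.3.3 and numpy 2.4.6, and plots with matplotlib 3.10.9, in Python 3.11.15.

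The members, lists and rules were chosen with earlier results of these data known. Lists cover other motile cilium genes, multiciliation and basal body factors, ciliary transport and transition zone genes, choroid plexus, meninges, cortical hem and Cajal-Retzius cells, ependymal and radial glial cells, dorsal progenitors, cortical neurons, diencephalic and ventral forebrain, and retina, pineal and testis. Named were every member, H2afz, up to 4 measured genes furthest from level on each other list, Ttr, and Trp73, Myb, E2f4, E2f5, Deup1, Cdc20b, Rfx1 and Rfx4. Rsph10b, Spag6l, Dnah7c, Ttc14, the neighbours of Mcidas, Kcnj13, Slc29a4, Cab39l, Prlr, Aqp4 and S100b were named after their values were seen. Alternatives were 3 other scalings, other read minimums, a larger prior, a fold limit of 2 and a sum without the member of most reads. Leaving out members with exon overlap, or with over 5% of 50-base stretches shared, was chosen after seeing the data.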

Additional observations from a re-analysis of the deposited data

How the results depend on the processing

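Scaling by library total, by DESeq2 size factors or by upper quartile left the same 14 members at least 1.5-fold lower and 0 higher, and moved the members' median log2 ratio to -0.55, -0.50 and -0.51. These scalings moved the median of all measured genes to between -0.03 and 0.03. The number lower was 19 at a minimum of 10 reads and 13 with a prior of 5 reads, which put Dnah1 at -0.58, just short of 1.5-fold. It was 23 with no minimum above 1 read (of 40 genes), 8 at a minimum of 50 reads (of 19) and 8 at a fold limit of 2, and 0 were higher under each. Without the members whose exons overlap another gene, an alternative chosen after seeing the data, 8 of 18 were lower at a median of -0.50. Without members sharing over 5% of their 50-base stretches with other genes, also chosen after seeing the data, 13 of 25 were lower. Their median was -0.62. The log2 ratio of the summed reads was -0.66 without Rfx3, the member with most reads. No paired analysis was possible because there is 1 library per genotype. Depth limits the 11 members under 20 reads, and for members with under 10 knockout reads the size of the difference is loosely bounded.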
